A study of Homo sapiens with 4 samples.

Results

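The genes described are 10 members of the BCL2 family: the survival guardians BCL2, BCL2L1 and MCL1, the pore-forming effector BAK1, and the BH3-only genes BCL2L11, BID, BBC3, BIK, BMF and PMAIP1. They were chosen by name, as all probe sets of the deposited table whose platform annotation gives only one of these symbols. This gave 10 of 18239 named genes and 49 of 49386 probe sets. Each gene is represented by its brightest probe set, the one with the highest mean over the 4 arrays, and its other probe sets are given as a check. Total RNA was measured on 4 one-colour arrays, 2 of PC9 and 2 of MTAC-P. PC9 is an established line from a human lung adenocarcinoma and carries an activating mutation of EGFR. MTAC-P is a lung cancer line that the labels call resistant and describe as raised by mild exposure to a tyrosine kinase inhibitor (TKI). The labels do not name the inhibitor, its dose, the parent line of MTAC-P or whether it is 1 clone, nor do they say whether drug was present at collection. Both lines were grown in the same serum-containing medium. The series' text says that samples were duplicated and names no separate cultures, so p-values measure only the spread between these arrays, which may be technical.

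Proteins of the BCL2 family decide whether the outer mitochondrial membrane is permeabilised, the step that releases cytochrome c and starts the caspase cascade. Guardians hold the effectors BAK and BAX in check, BH3-only proteins bind guardians or activate effectors directly, and cells die when the BH3-only side prevails. In lung cancer cells with mutant EGFR, the BH3-only protein BIM, encoded by BCL2L11, is a known mediator of death after EGFR inhibition, and MCL1 and BCL-XL, encoded by BCL2L1, are known to oppose it. Much of this control acts on protein stability, cleavage and binding, which RNA arrays do not read.

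Between the lines, BID and BIK had the largest differences toward MTAC-P and PMAIP1 the largest toward PC9. The mean of BID was 1.67-fold and that of BIK 1.49-fold higher in MTAC-P, whereas that of PMAIP1 was 1.43-fold higher in PC9. None of the 10 members passed the test across all genes (limma, Benjamini-Hochberg adjusted p threshold of 0.05), which 3 of 14970 tested genes, or 0.0200%, passed. In this test BIK was the only member with an unadjusted limma p under 0.05, so 1 of 10 members against 18.9% of all tested genes. Means were higher in MTAC-P for 7 members and lower for 3, beside 53.8% of tested genes higher. Both MTAC-P arrays lay above both PC9 arrays for 4 members (28.3% of tested genes) and below them for 2 (24.9%). The median log2 difference (MTAC-P minus PC9) of the 10 members was 0.19, beside 0.031 for all tested genes, and it was 0.37 when MTAC-P replicate 1 was left out and 0.0084 when replicate 2 of that line was left out.

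**Figure D1:**
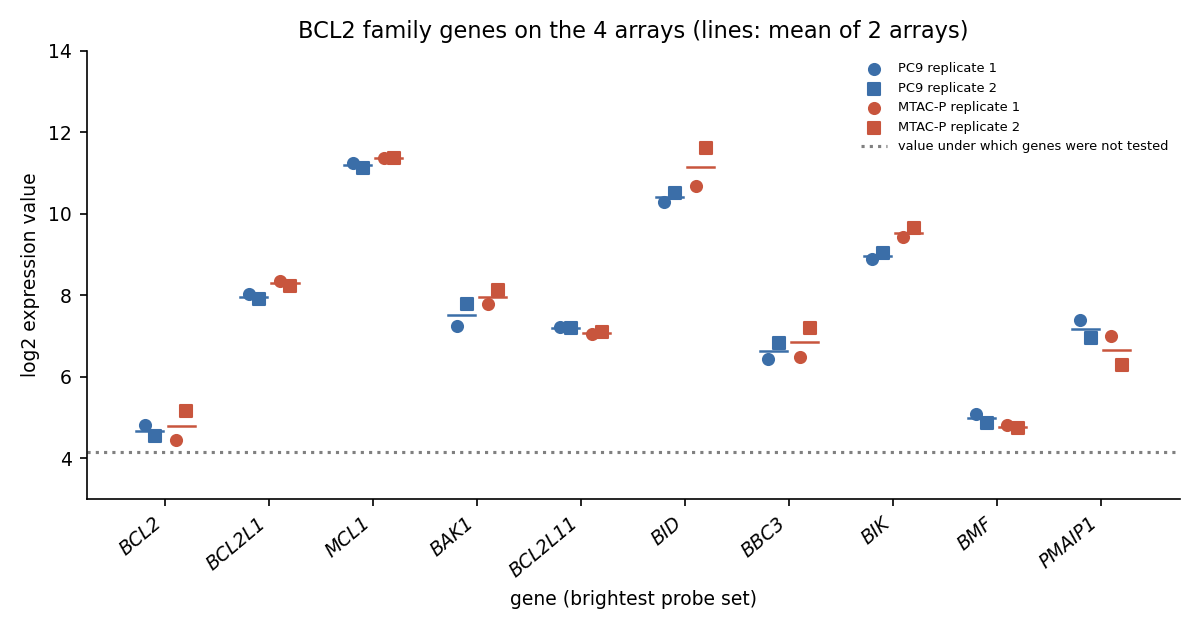
Log2 expression values of the brightest probe set of each of the 10 genes on the 2 PC9 arrays (blue) and the 2 MTAC-P arrays (red), with short lines for the mean of each line and a dotted line at 4.14, the value under which genes were not tested. BID, BIK, BCL2L1 and MCL1 show both red points above both blue points, and BCL2 and BMF lie close to the dotted line.

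Over the 4 arrays, epithelial markers (EPCAM, KRT8, KRT18, KRT19 and CDH1) were measured at log2 values of 10.28 or more in both lines. The 12 markers of blood, fibroblast and endothelial cells were at 5.95 or less. Array medians over all probe sets lay between 4.85 and 4.88. The table holds no detection calls. Its nonspecific control probe sets averaged 4.93 to 5.32 per array for the class richest in G and C bases (GC-rich). All the others, which run from low to fairly high GC content, averaged 3.81 to 3.87. All 10 members had means above the 25th percentile of all probe sets, 4.14.

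The promoter windows of BID, BAK1 and PMAIP1 are shown because BID and BAK1 had higher means in MTAC-P on most of their probe sets, while PMAIP1 had the largest difference toward PC9. This choice was made after the values were seen, and other members, among them BCL2L1, BBC3 and BCL2L11, also had higher means on most of their probe sets. Each window holds 300 bases around the gene start in RefSeq (GRCh38.p14), most of them upstream of it, and is written 5′ to 3′ on the gene's strand, and capitals mark GC boxes, the letters GGGCGG on either strand. RefSeq windows of 8 of the 10 members were matched by symbol.
BID, chr22:17774420-17774719, minus strand: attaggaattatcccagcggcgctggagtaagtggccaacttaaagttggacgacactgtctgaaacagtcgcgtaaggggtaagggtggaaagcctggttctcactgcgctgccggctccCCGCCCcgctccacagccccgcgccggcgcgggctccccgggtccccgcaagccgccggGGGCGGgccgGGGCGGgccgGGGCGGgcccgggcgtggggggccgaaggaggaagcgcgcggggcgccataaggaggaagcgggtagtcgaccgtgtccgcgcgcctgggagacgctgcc
BAK1, chr6:33580227-33580526, minus strand: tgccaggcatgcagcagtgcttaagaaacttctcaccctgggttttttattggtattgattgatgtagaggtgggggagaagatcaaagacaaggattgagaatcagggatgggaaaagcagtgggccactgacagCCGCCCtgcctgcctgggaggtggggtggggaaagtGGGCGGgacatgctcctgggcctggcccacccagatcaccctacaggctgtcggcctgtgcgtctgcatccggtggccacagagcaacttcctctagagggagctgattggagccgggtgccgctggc
PMAIP1, chr18:59899746-59900045, plus strand: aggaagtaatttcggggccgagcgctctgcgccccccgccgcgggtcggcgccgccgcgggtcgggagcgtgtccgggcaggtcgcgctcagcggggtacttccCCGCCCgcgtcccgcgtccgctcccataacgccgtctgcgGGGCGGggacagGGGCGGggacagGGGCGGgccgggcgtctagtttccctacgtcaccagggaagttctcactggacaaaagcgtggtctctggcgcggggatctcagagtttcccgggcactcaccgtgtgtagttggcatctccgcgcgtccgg
The BID and PMAIP1 windows each hold 4 GC boxes and the BAK1 window holds 2. Among the matched members not shown, the BCL2L11 window holds 3 and the BMF window 2. The windows of BCL2, BBC3 and BCL2L1 hold 0. A GC box on either strand occurs in 44.6% of 27305 RefSeq windows of the same length. The TATA box letters TATAAA, present in 12.0% of those RefSeq windows on either strand, are in none of the 3 windows shown. The BCL2L1 window holds 2 matches of them. The arrays read transcript levels and not these windows, and a match of letters is a description only.

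On the brightest probe sets of the guardians, BCL2L1 had the clearest separation of the lines. A dimmer MCL1 probe set had a wider gap, 0.55. BCL2L1, whose main product BCL-XL guards the mitochondrial membrane, was at log2 values of 8.03 and 7.90 in PC9 and 8.35 and 8.23 in MTAC-P. Both MTAC-P arrays lay above both PC9 arrays, by a gap of 0.19. The difference was 0.32 (SE 0.16, 95% interval -0.059 to 0.71, limma adjusted p = 0.325). A second probe set, at 6.22 and 6.02 in PC9 and 6.42 and 7.18 in MTAC-P, differed by 0.68, with MTAC-P replicate 2 well above the other 3 arrays. The third BCL2L1 probe set differed by 0.074, with overlapping arrays.

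MCL1 encodes a guardian whose protein is short-lived. On its brightest probe set MCL1 was at 11.25 and 11.13 in PC9 and 11.36 and 11.37 in MTAC-P. The MTAC-P arrays were nearly equal and lay above both PC9 arrays, and the difference was 0.17 (SE 0.15, 95% interval -0.20 to 0.54, limma adjusted p = 0.568). All 6 MCL1 probe sets had a higher mean in MTAC-P, but by very unequal amounts, from 0.041 to 1.18. The probe set with the largest difference of any member probe set was one of MCL1, at 7.98 and 7.01 in PC9 and 8.81 and 8.54 in MTAC-P. Its PC9 arrays were 0.97 apart, and its limma p adjusted over all probe sets was 0.170. A probe set at 9.67 and 9.70 in PC9 and 9.69 and 9.76 in MTAC-P hardly moved, so the size of the MCL1 difference depended on the probe set.

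BCL2, the guardian that gave the family its name, was at 4.81 and 4.54 in PC9 and 4.45 and 5.15 in MTAC-P. The lowest and the highest of these values were both MTAC-P arrays, so the lines overlapped. The difference was 0.13 (95% interval -0.49 to 0.75), and it was -0.0034 without PC9 replicate 2 and -0.22 without MTAC-P replicate 2. Of the 6 BCL2 probe sets, 3 had means under 4.14. The mean levels of its brightest one fell below the averages of the GC-rich control probe sets and above those of the other control probe sets. Whether BCL2 RNA is present in either line was therefore not determined.

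BAK1 encodes BAK, which forms the pore in the outer mitochondrial membrane once activated. On its brightest probe set BAK1 was at 7.26 and 7.79 in PC9 and 7.79 and 8.14 in MTAC-P. The lower MTAC-P array lay just under the higher PC9 array, so the lines overlapped by 0.0024. The difference of BAK1 was 0.44 (SE 0.23, 95% interval -0.12 to 1.00, limma adjusted p = 0.353), and it was 0.17 without PC9 replicate 1, 0.26 without MTAC-P replicate 2 and 0.70 without PC9 replicate 2. Of the other 4 BAK1 probe sets, 3 had both MTAC-P arrays above both PC9 arrays (26.2% of all probe sets), with differences of 0.41, 0.54 and 0.61. The remaining one, at 4.41 to 4.76, differed by -0.057. MTAC-P replicate 2 was the highest of the 4 arrays on all 5 BAK1 probe sets.

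**Figure D2:**
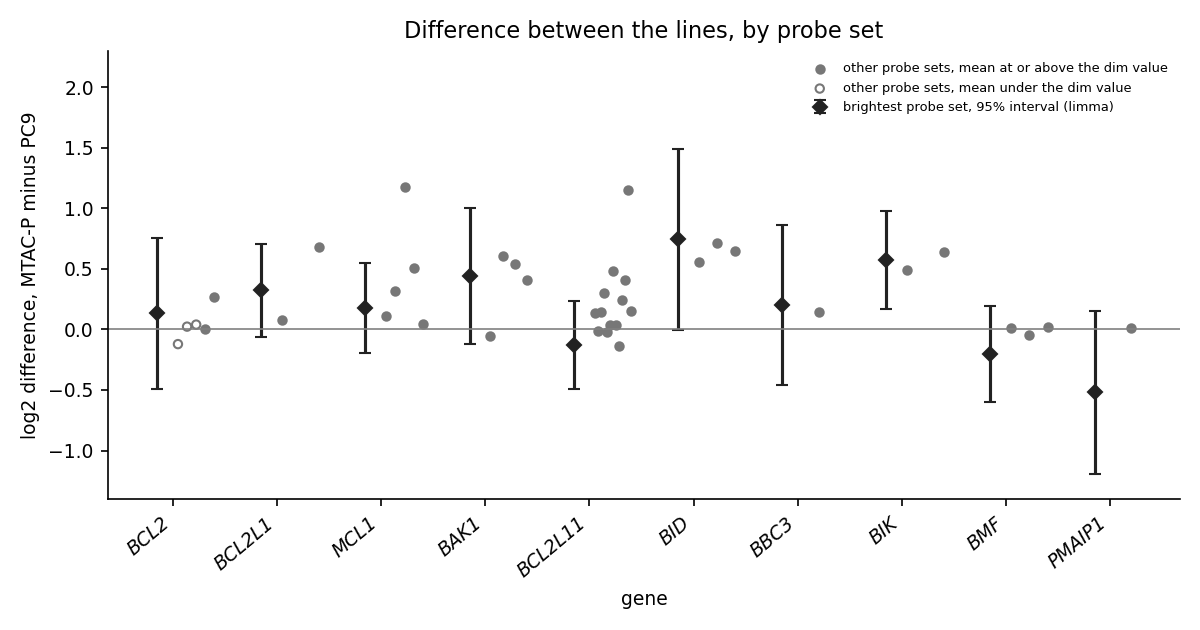
Log2 difference (MTAC-P minus PC9) of the brightest probe set of each gene (black diamonds, bars for limma's 95% interval, n = 2 arrays per line) and of each other probe set (grey points, open where the mean is under 4.14). All points of BID and BIK lie above 0, whereas the 14 probe sets of BCL2L11 spread from -0.14 to 1.15.

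Of the 49 member probe sets, 46 had a mean at or above 4.14. Means were higher in MTAC-P for 40 of the 49, or 81.6%, beside 53.9% of all 49293 non-control probe sets. Both MTAC-P arrays lay above both PC9 arrays for 21 of the 49 (26.2% of all probe sets) and below them for 3 (22.0%). In limma over all probe sets, 0 of the 49 passed the adjusted threshold, which 0.00203% of all probe sets did. An unadjusted p under 0.05 was reached by 11 of the 49, all higher in MTAC-P, beside 7.32% of all probe sets in that direction. Probe sets of 1 gene read RNA of the same gene on the same 4 arrays and are not independent, and BCL2L11 alone supplies 14 of the 49. The GC-rich nonspecific control probe sets also averaged higher in MTAC-P, at 5.18 and 5.32 against 5.06 and 4.93 in PC9, without overlap and with MTAC-P replicate 2 the highest array. Their part in the member values was not tested.

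BID encodes a BH3-only protein that caspase-8 cleaves, which links death receptors to mitochondria. BID was at 10.30 and 10.51 in PC9 and 10.68 and 11.62 in MTAC-P. Both MTAC-P arrays lay above both PC9 arrays, but most of the distance came from MTAC-P replicate 2, which was 0.94 above MTAC-P replicate 1. The difference of BID was 0.74 (SE 0.31, 95% interval -0.0023 to 1.49, limma adjusted p = 0.266), and 6.27% of tested genes had a larger absolute difference. Leaving out MTAC-P replicate 2 gave 0.27 and leaving out MTAC-P replicate 1 gave 1.21. All 4 BID probe sets were higher in MTAC-P without overlap (26.2% of all probe sets were), by 0.55 to 0.74, and MTAC-P replicate 2 was the highest array on each. The difference between the 3′ and 5′ control probe sets of ACTB, a measure of RNA integrity and labelling, was 1.71 and 2.49 in PC9 and 1.51 and 1.75 in MTAC-P. It was thus higher in replicate 2 of both lines, as BID was, but its highest array was PC9 replicate 2, whereas that of BID was MTAC-P replicate 2. The same difference for GAPDH was -0.057 and 0.038 in PC9 and -0.090 and -0.069 in MTAC-P. The part of these controls in the BID values was not tested.

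BIK encodes a BH3-only protein found largely at the endoplasmic reticulum. BIK was at 8.89 and 9.03 in PC9 and 9.42 and 9.65 in MTAC-P. The lines were separated by a gap of 0.39, larger than the distance between the duplicates of either line, 0.14 and 0.23. The difference of BIK was 0.57 (SE 0.17, 95% interval 0.17 to 0.98, limma adjusted p = 0.160), and 12.4% of tested genes had a larger absolute difference. BIK was the only member whose 95% interval did not include 0 in the fit over genes. In the fit over probe sets, the interval of the brightest BID probe set, 0.013 to 1.47, did not include 0 either. Its 3 probe sets were higher in MTAC-P without overlap (26.2% of all probe sets were), by 0.49, 0.57 and 0.64. When 1 array was left out, the difference of BIK stayed between 0.46 and 0.69. MTAC-P replicate 2 was the highest array on all 3 BIK probe sets, and on the brightest one replicate 2 was the higher array in both lines, as for BID and the ACTB controls. The part of these controls in the BIK values was not tested either.

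BCL2L11, the gene of BIM, was nearly equal in the lines on its brightest probe set, at 7.21 and 7.19 in PC9 and 7.05 and 7.10 in MTAC-P. Both MTAC-P arrays lay below both PC9 arrays, by a gap of only 0.087. The difference was -0.13 (SE 0.15, 95% interval -0.49 to 0.24, limma adjusted p = 0.682). Since the interval reaches -0.49, equality of the lines was not shown. The other BCL2L11 probe sets mostly pointed the other way: 10 of the 14 had a higher mean in MTAC-P, and the mean of all 14 differed by 0.20. One of them, at 5.98 and 5.43 in PC9 and 6.77 and 6.94 in MTAC-P, differed by 1.15 (limma adjusted p over all probe sets = 0.128). A further one, at 5.12 and 4.81 in PC9 and 5.50 and 5.40 in MTAC-P, differed by 0.48. Of the 14, 5 had both MTAC-P arrays above both PC9 arrays (26.2% of all probe sets), 1 had them below (22.0%) and 8 overlapped. On some of them PC9 replicate 2 lay well under PC9 replicate 1. An example had 7.18 and 6.48 in PC9 and 7.00 and 6.98 in MTAC-P, so its direction depended on the PC9 array taken. PC9 replicate 2 also had the highest ACTB control difference, 2.49, whose part in these values was not tested. BCL2L11 has several transcripts that encode BIM forms of different length. Which of them each probe set reads is not given in the sources used here.

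PMAIP1 encodes NOXA, a BH3-only protein that binds MCL1. PMAIP1 was at 7.39 and 6.94 in PC9 and 7.00 and 6.30 in MTAC-P. The highest value was PC9 replicate 1 and the lowest MTAC-P replicate 2, while the remaining pair of arrays overlapped by 0.060. The difference of PMAIP1 was -0.52 (SE 0.28, 95% interval -1.19 to 0.15, limma adjusted p = 0.358), and it was -0.17 if MTAC-P replicate 2 was left out and -0.87 if MTAC-P replicate 1 was left out. The other PMAIP1 probe set, at 7.15 and 6.01 in PC9 and 6.83 and 6.35 in MTAC-P, differed by 0.012. The lower level of PMAIP1 in MTAC-P therefore rested on 1 of its 2 probe sets.

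BBC3 encodes PUMA, a BH3-only protein that binds the guardians broadly. BBC3 was at 6.44 and 6.84 in PC9 and 6.48 and 7.20 in MTAC-P. The lines overlapped, since the lower MTAC-P array lay near the lower PC9 array, and the difference was 0.20 (95% interval -0.46 to 0.86). Without MTAC-P replicate 2 it was -0.16. The other BBC3 probe set differed by 0.14, also with overlapping arrays.

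BMF, a BH3-only gene whose product is tethered to the actin cytoskeleton, was at 5.10 and 4.86 in PC9 and 4.80 and 4.74 in MTAC-P. Both MTAC-P arrays lay below both PC9 arrays, by a gap of 0.051. The difference of BMF was -0.20 (95% interval -0.60 to 0.19), and leaving out PC9 replicate 1 gave -0.083, while leaving out PC9 replicate 2 gave -0.33. Its other 3 probe sets differed by -0.044 to 0.017. As for BCL2, the line means fell below the averages of the GC-rich control probe sets and above those of the other control probe sets.

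**Figure D3:**
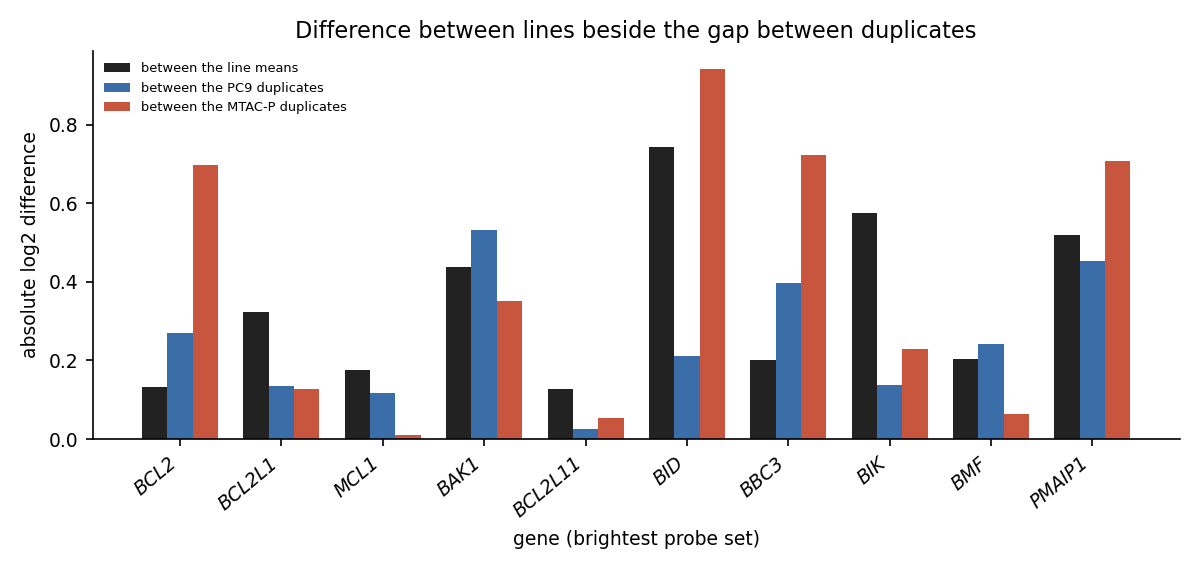
Absolute log2 difference between the line means (black bars) beside the absolute difference between the 2 PC9 arrays (blue) and the 2 MTAC-P arrays (red), for the brightest probe set of each gene. The black bar is the tallest for BIK, BCL2L1, MCL1 and BCL2L11, whereas for BID the duplicates of MTAC-P, 0.94 apart, differed more than the line means.

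For 6 of the 10 members the duplicates of at least 1 line were farther apart than the line means, a share near the 61.5% of all tested genes for which this was so. BIK, BCL2L1, MCL1 and BCL2L11 were the other 4. A duplicate gap compares 2 single arrays, whereas a line difference compares 2 means. The 3 guardians had a median difference of 0.17 and the 6 BH3-only genes a median of 0.037, with 3 BH3-only genes higher and 3 lower.

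The genes whose profile over the 4 arrays lay nearest to that of BID were SPDEF, KIR3DL2 and LRRC14. Likeness was measured as the Euclidean distance between log2 values after each gene's own mean was subtracted, and these distances were 0.086, 0.099 and 0.099. For PMAIP1 the nearest were ZNF644, ZNF529 and CCDC25, at 0.042, 0.068 and 0.094. With 4 arrays and 14970 genes, near matches are easily found, and these are descriptions only. Within the family the closest pair was BCL2L1 and MCL1, at a distance of 0.18, followed by BCL2L11 and BMF at 0.19. Values were not rescaled, so genes that varied little over the arrays lie close together on this measure.

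The other genes of the pathway were taken from fixed lists. No gene of these lists passed limma's adjusted threshold, so they are described by counts and values. Of 13 further BCL2 family genes, 3 had means under 4.14 and 10 were tested. Among these, 8 were higher in MTAC-P and 2 lower, with a median difference of 0.21, which was -0.020 without MTAC-P replicate 2. BAX, the effector that acts beside BAK, was at 9.91 and 9.96 in PC9 and 10.29 and 10.85 in MTAC-P. Both MTAC-P arrays of BAX lay above both PC9 arrays, and the difference was 0.64 (SE 0.22, limma adjusted p = 0.202). Leaving out MTAC-P replicate 2 gave a BAX difference of 0.36. BNIP3L, a BCL2-related gene of mitochondrial turnover, differed by -0.39, with all 6 of its probe sets lower in MTAC-P. For BNIP3L, leaving out MTAC-P replicate 1 gave -0.19, while leaving out MTAC-P replicate 2 gave -0.60.

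In the mitochondrial execution list, which holds the caspases, the proteins released from mitochondria and the inhibitor of apoptosis (IAP) genes, 15 of 19 genes were tested and the others were not analysed here. Of the 15, 12 were higher and 3 lower in MTAC-P, with a median of 0.15, which was 0.073 without MTAC-P replicate 2 and 0.098 without PC9 replicate 2. The 3 lower ones were BIRC2, BIRC6 and XIAP, all of them IAP genes. They also were the only ones of the 15 with an unadjusted limma p under 0.05. Such a p was reached by 18.9% of the 14970 tested genes in either direction, with 1662 genes lower in MTAC-P and 1161 higher. BIRC2, which encodes cIAP1, was at 9.79 and 10.15 in PC9 and 9.17 and 8.67 in MTAC-P, with both MTAC-P arrays below both PC9 arrays. The difference of BIRC2 was -1.05 (SE 0.23, limma adjusted p = 0.117), and its 5 probe sets ranged from -1.05 to -0.36. BIRC6 differed by -0.93 (limma adjusted p = 0.108) and XIAP, the direct caspase inhibitor, by -0.61 (limma adjusted p = 0.153). BIRC6 and XIAP fall outside the naming rule and were chosen after their values were seen. BIRC5, the IAP gene of survivin, differed by 0.19. The largest positive difference of the list, 0.49, was that of DFFA, which encodes the inhibitor of the caspase-activated DNase, and it was 0.26 without MTAC-P replicate 2.

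Of 9 tested genes of the death receptor pathway, which acts on BID through caspase-8, 6 were higher and 3 lower in MTAC-P, with a median of 0.060, which was 0.14 without MTAC-P replicate 1 and 0.22 with averaged probe sets. TNFRSF10A, a receptor for TRAIL, was at 7.98 and 7.85 in PC9 and 8.48 and 8.72 in MTAC-P. The lines did not overlap, and the difference was 0.69 (SE 0.17, limma adjusted p = 0.133). FAS was at 4.48 and 4.92 in PC9 and 4.03 and 4.32 in MTAC-P, close to 4.14, and differed by -0.53 (-0.31 without PC9 replicate 2), while its other probe set differed by 0.12. CASP8 itself differed by 0.015.

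Of 16 tested regulators of the members, 11 were higher and 5 lower in MTAC-P, with a median of 0.050, which was -0.015 without PC9 replicate 2 and 0.13 when the probe sets of each gene were averaged. FOXO1, of the FOXO transcription factors that are known to activate BCL2L11, was at 9.17 and 8.74 in PC9 and 8.03 and 8.12 in MTAC-P, a difference of -0.88 (SE 0.19, limma adjusted p = 0.119). The lines did not overlap on this probe set, but the 4 probe sets of FOXO1 ranged from -0.88 to 0.14. ATF4, the transcription factor of the integrated stress response, was at 13.24 and 13.00 in PC9 and 13.47 and 13.68 in MTAC-P, a difference of 0.46. USP9X, which encodes a deubiquitinase known to stabilise MCL1 and which was chosen after its values were seen, differed by -0.81 (SE 0.16, limma adjusted p = 0.111).

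**Figure D4:**
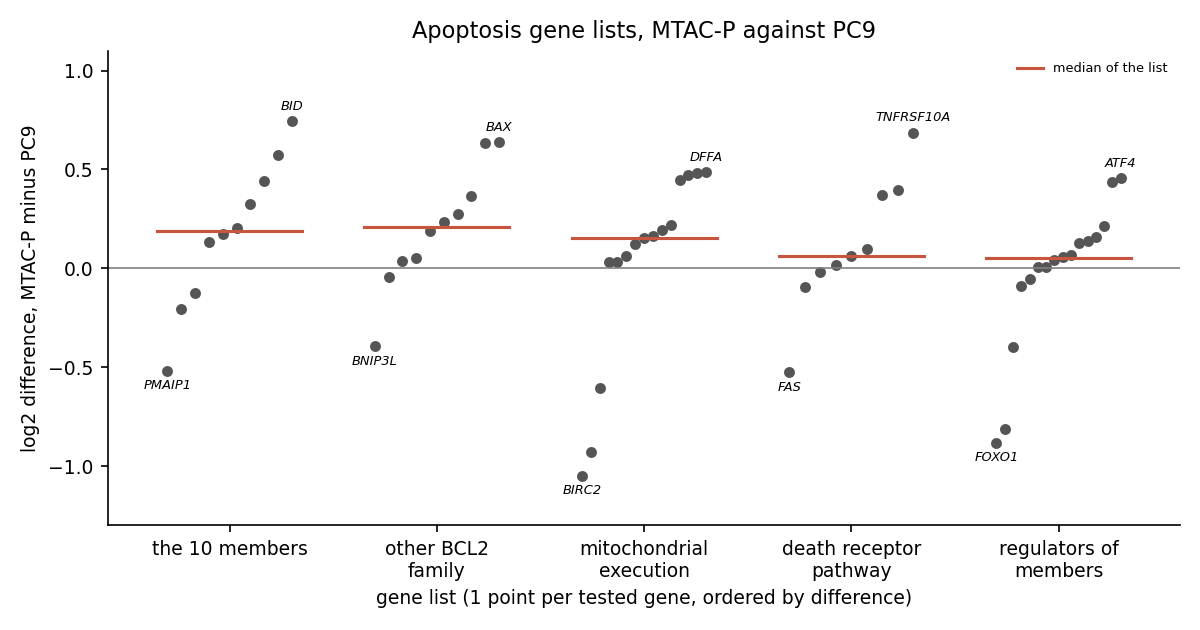
Log2 difference (MTAC-P minus PC9) of each tested gene in 5 lists, 1 point per gene ordered by its difference, with red lines for the list medians and names for the lowest and highest gene. The medians run from 0.050 for the regulators to 0.21 for the rest of the BCL2 family, and the lowest points of the execution list are BIRC2, BIRC6 and XIAP.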

How the data were processed

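The authors deposited log2 expression values, 1 per probe set and array. No source used here gives the steps behind them, and log2 was taken as their scale because they range between 3.32 and 14.6. Per the labels, an Agilent one-colour kit with Cy3 was used, and the submitters' processing notes name Agilent Feature Extraction 10.7, whereas the probe-set names follow Affymetrix conventions. How these relate is not settled.

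Of 49386 probe sets, 93 were controls, 45253 had 1 symbol, 1327 several and 2713 none. Symbols were updated by gene identifier to RefSeq. Each gene was represented by its brightest probe set, and 3269 genes with means under the 25th percentile, 4.14, were left out. In Affymetrix naming, the brightest probe sets of BCL2L1, MCL1 and BIK are of types that may also match other transcripts. The test was limma's (version 3.58.1, R 4.3.3, lmFit and eBayes, 2-sided), run over 14970 genes and, for agreement, over 49293 probe sets. P-values were adjusted by the Benjamini-Hochberg method at 0.05. An exact permutation test of 2 against 2 arrays cannot give a 2-sided p below 0.333. The number of arrays limits the precision.

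Named were the 10 members, of each list the genes with the largest positive and negative difference where none passed, the genes nearest to BID and PMAIP1, and those said to be chosen after their values were seen. The members and lists were chosen with earlier results of these data known. The alternatives tried were a block for replicate number, other scalings, filters, probe-set rules and priors, a pseudocount of 16 and leaving out each array. In 20 simulated data sets of MTAC-P against PC9 over 14970 genes with 200 genes changed, log2 changes of 1 were recovered for 25.2% of genes, changes of 2 for 95.0% and changes of 3 for 99.1%, and 8 unchanged genes were called on average. The simulated noise was independent between genes and arrays, and each change was larger than any member's difference on its brightest probe set. Recovery at the size of the member differences was therefore not tested. Python 3.11.15 with matplotlib 3.10.9 drew the figures.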

Additional observations from a re-analysis of the deposited data

How the results depend on the processing

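Across the 12 alternative settings, 0 members passed the limma threshold except with the replicate number as a block, where 2 members passed, BID at an adjusted p of 0.00894 (0.0919 to 0.571 in the other settings) and BIK at 0.0328 (0.128 to 0.416). With this block 5 of the 49 member probe sets and 2079 genes passed, against 0 and 3 without it, as did BAX, BIRC2, TNFRSF10A and FOXO1 among the followed list genes. The duplicate differences of the lines correlated across genes (r = 0.28, over genes that are not independent replicates), but with 2 pairs and no label of a shared day or batch, the numbers are not shown to pair the arrays. Over all genes, 77 passed with a variance trend, 1 with a dim filter at the 50th percentile, 1 with the pseudocount and 0 with the mean of all probe sets, and leaving out 1 array gave 0 to 68. The 50th percentile filter left BCL2 untested, and the cause of the other shifts was not tested. BCL2L11 turned to 0.20 with the mean of its probe sets. BCL2 ranged from -0.22 to 0.48 and BBC3 from -0.16 to 0.56 when 1 array was left out. The other 7 members kept their direction in all settings. Where an array was left out, the lone array of that line was assumed to vary like the other line. Levels of BCL2 and BMF near the control probe sets limit what their differences show.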
